A study of Mus musculus with 12 samples.

Results

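The genes described here are 10 astrocyte genes, taken by symbol from a list drawn up with earlier results of these data known: Gfap, Aqp4, Aldh1l1, S100b, Gja1, Sparcl1, Apoe, Slc1a2, Aldoc and Clu. All 10 were found among the 34102 genes of the count table, and all 10 passed the filter on low counts in every comparison. They were followed through bulk RNA-seq of mouse cortex and of cultured neural progenitor cells (NPC), in 4 groups of 3 libraries, in a study of Srsf10, the gene of an SR protein that regulates pre-mRNA splicing. Both cortex groups carried floxed Srsf10 on a C57BL/6 background. The control group was Srsf10 flox /flox Nestin-Cre-, and the group labelled cKO (conditional knockout) was Srsf10 flox /flox Nestin-Cre+. Nestin-Cre drives Cre in neural progenitors, so cells derived from them, astrocytes included, carry the recombined allele where Cre acted. Only the cKO group carried Cre and there was no group with Cre and unfloxed Srsf10, so the transgene and the loss of Srsf10 cannot be told apart. The NPC were primary cells from C57BL/6 cortex, grown in suspension with bFGF, EGF, heparin and B27. The control NPC are labelled WT, and the treated NPC are labelled SRSF10 knockdown, made by lentivirus. A multiplicity of infection of 30 and RNA taken 72 h after infection are given for the libraries of both NPC groups. The sources used here do not say which virus the control cells received, or give the age of the mice. The labels do not say that each library came from its own animal or culture, so p-values measure the spread between these libraries.

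Astrocytes are the glia that take up glutamate and potassium around synapses, line blood vessels with their endfeet, couple to each other through gap junctions and supply lipoproteins to neurons. Several of the genes used to mark them are also expressed by radial glia and cultured neural progenitors, the cells from which astrocytes arise, so a marker's level in progenitors is not by itself a count of astrocytes. In bulk RNA, fewer astrocytes and less RNA per astrocyte cannot be told apart.

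Libraries held 26074094 to 36713205 counts, and every value below is in counts-per-million (CPM) scaled by TMM, an edgeR normalisation. Srsf10 itself had 204 ± 10.0 CPM (SD, n = 3) in control cortex and 207 ± 18.9 in cortex labelled cKO, and 237 ± 14.2 in control NPC and 228 ± 10.6 in NPC labelled knockdown. Its gene-level count was thus not lower beyond the spread between libraries in either labelled group (adjusted p = 0.917 in cortex and 0.774 in NPC, edgeR). Gene-level counts cannot show whether the floxed exons were lost. The choroid plexus gene Ttr reached 1173 CPM in control cortex library 2 and 1038 CPM in cKO library 3, against 2.36 to 99.0 CPM in the other cortex libraries. The summed level of 7 meningeal fibroblast markers was 95.1 CPM in control library 2, against 277 to 513 CPM in the other cortex libraries. Of 12 radial glia genes, 9 were higher in control NPC than in control cortex (edgeR), against 38.4% of all genes tested. The other 3, Hes5, Hopx and Prom1, were lower, against 40.5%. Nes, the intermediate filament of progenitors, was among the higher, at 1969 ± 45.7 CPM in control NPC against 133 ± 3.30 in control cortex. The neuronal tubulin Tubb3 stood at 12.7 ± 1.27 against 2268 ± 337. Olig2 of the oligodendrocyte lineage stood at 1071 to 1090 CPM in control NPC against 31.7 to 37.3 in control cortex. Markers of that lineage went both ways. Of 8 tested, 3 (Cspg4, Olig1 and Olig2) were higher in control NPC, against 38.4% of all genes tested. Another 3 (Gpr17, Mbp and Pdgfra) were lower, against 40.5%. Microglial markers summed to 0.401 to 1.58 CPM in the NPC libraries, and Cx3cr1 was at 0 counts in all 6.

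Promoters are shown for the 4 genes that passed the paired test in NPC described below and have an entry in the RefSeq table on GRCm38.p6, which holds 7 of the 10 genes. Each runs from 250 bases before to 50 bases after the annotated start, read 5′ to 3′ on the gene's strand, at chr11:102897151-102897450 (minus) for Gfap, chr10:76253586-76253885 (plus) for S100b, chr6:90550543-90550842 (plus) for Aldh1l1 and chr10:56377050-56377349 (plus) for Gja1. Capitals mark matches to TTCNNNGAA, the core that STAT factors recognise, and to TTGGC, the half-site of nuclear factor I, searched on both strands.
Gfap: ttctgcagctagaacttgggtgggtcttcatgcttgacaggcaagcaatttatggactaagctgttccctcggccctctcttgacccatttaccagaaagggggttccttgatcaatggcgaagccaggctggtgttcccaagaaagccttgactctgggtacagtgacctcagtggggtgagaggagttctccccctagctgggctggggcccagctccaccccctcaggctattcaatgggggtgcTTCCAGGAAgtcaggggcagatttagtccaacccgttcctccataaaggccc
S100b: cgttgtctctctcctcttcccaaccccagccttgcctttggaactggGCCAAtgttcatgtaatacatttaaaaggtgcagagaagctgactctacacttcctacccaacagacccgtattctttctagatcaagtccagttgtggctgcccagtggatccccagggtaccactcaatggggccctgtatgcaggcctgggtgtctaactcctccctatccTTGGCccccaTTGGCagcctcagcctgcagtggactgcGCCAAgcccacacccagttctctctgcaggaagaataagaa
Aldh1l1: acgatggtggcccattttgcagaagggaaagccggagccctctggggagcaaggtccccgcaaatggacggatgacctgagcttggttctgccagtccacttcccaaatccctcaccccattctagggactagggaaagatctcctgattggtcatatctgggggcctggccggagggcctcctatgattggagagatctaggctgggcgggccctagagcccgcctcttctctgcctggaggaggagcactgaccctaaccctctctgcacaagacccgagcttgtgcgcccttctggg
Gja1: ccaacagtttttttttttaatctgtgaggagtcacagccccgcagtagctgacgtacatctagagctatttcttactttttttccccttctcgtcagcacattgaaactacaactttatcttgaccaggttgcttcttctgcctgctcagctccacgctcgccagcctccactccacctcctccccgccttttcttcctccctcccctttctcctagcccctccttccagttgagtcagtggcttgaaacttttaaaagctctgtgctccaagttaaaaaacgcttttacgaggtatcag
STAT3 and nuclear factor I are known regulators of astrocyte genes. The Gfap window held 1 match to TTCNNNGAA, a motif found in 8.3% of 32851 promoter windows of this length. The S100b window held 4 matches to TTGGC, which 46.7% of windows hold at least once. The share of windows with 4 matches was not counted. The Aldh1l1 and Gja1 windows held neither motif, and none of the 4 windows held TATAAA, which 13.6% of windows hold. CpG pairs numbered 3 for Gfap, 3 for S100b, 9 for Aldh1l1 and 8 for Gja1. A match describes letters and not a bound site.

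In the annotation on mm10 the whole gene models lie as follows. Gfap is found at chr11:102887336-102900912 and Aldoc at chr11:78322968-78327781, both on chromosome 11. S100b is found at chr10:76253853-76261159 and Gja1 at chr10:56377330-56402513, both on chromosome 10. The secreted proteins are encoded by Sparcl1 at chr5:104079111-104113733, Apoe at chr7:19696109-19699188 and Clu at chr14:65968483-65981547. Aldh1l1 is found at chr6:90486427-90600203 and Slc1a2 at chr2:102658659-102790784. Counts were given per gene, so no exon or transcript is resolved.

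Levels of different genes were compared per kilobase of annotated exon. In control cortex Sparcl1, a secreted matrix protein that promotes synapse formation, stood highest at 161 CPM per kb. Apoe, the main apolipoprotein that astrocytes release, followed at 107 CPM per kb, and Aldoc, the brain aldolase of glycolysis, at 33.9 CPM per kb. The next 4 were Clu (19.3 CPM per kb), an extracellular chaperone, Slc1a2 (16.1), the glutamate transporter GLT-1, Gfap (13.1), the intermediate filament of astrocytes, and Aldh1l1 (10.5), a folate enzyme widely used as a pan-astrocyte marker. In this run each gene overlapped the next over the 3 libraries, so neighbours in it did not differ beyond their spread. Gja1 (5.53 CPM per kb), the gap junction protein connexin 43, and Aqp4 (5.49), the water channel of the endfeet, also overlapped. S100b, a calcium-binding protein, came last at 0.578 CPM per kb.

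The order differed in control NPC. Sparcl1 at 231 CPM per kb and Apoe at 139 again led, and Aldh1l1 came next at 111. Aldoc (39.1 CPM per kb), Gja1 (24.4) and Slc1a2 (13.6) followed without overlap between neighbours. Clu (9.13) overlapped Aqp4 (8.06), and Aqp4 overlapped S100b (5.46). Gfap came last at 1.27 CPM per kb, below every value of S100b.

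**Figure D1:**
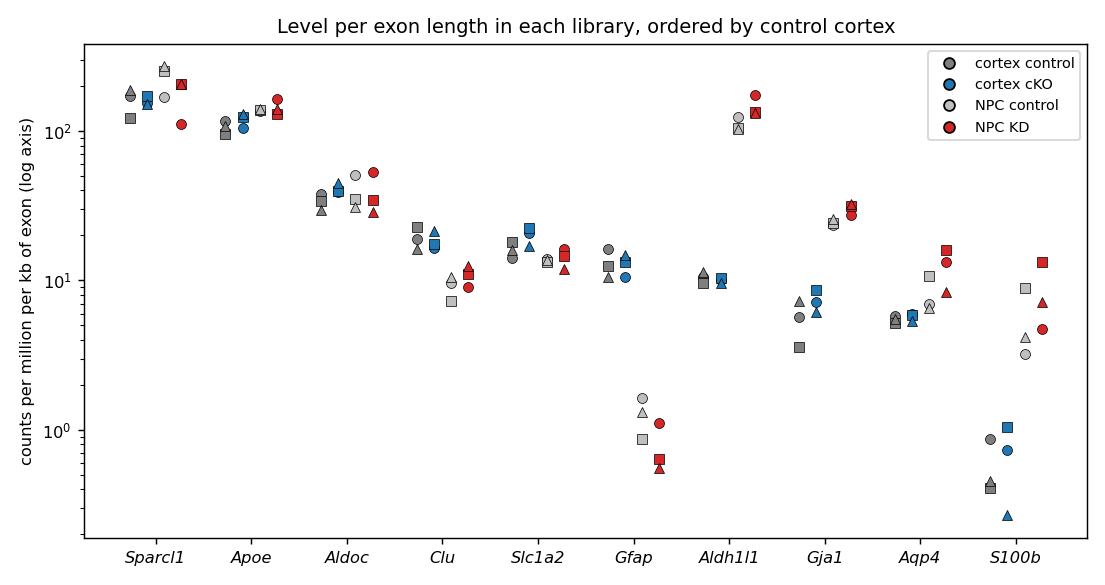
Level of each astrocyte gene in CPM per kilobase of exon (vertical log axis) in each of the 12 libraries, with colours for the 4 groups and marker shapes for replicates 1 (circle), 2 (square) and 3 (triangle). Sparcl1 and Apoe stand highest in both control groups, Gfap is lower and Aldh1l1, Gja1 and S100b are higher in NPC than in cortex.

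Control NPC were compared with control cortex to show where the genes stood before any treatment. By edgeR's quasi-likelihood test, 9 of the 10 genes differed, where 78.9% of the 15676 genes tested did. In NPC 6 were higher, against 38.4% of all genes, and 3 lower, against 40.5%. The count of 9 of 10 is near the background. The size and direction did vary among them. Aldh1l1 was 10.4 times as high in NPC (log2 3.38, SE 0.10, adjusted p = 3.33e-09), S100b 9.28 times (log2 3.21, SE 0.46, adjusted p = 0.000129) and Gja1 4.38 times (log2 2.13, SE 0.21, adjusted p = 9.87e-06). Gfap stood at 9.63% of its cortical level (log2 -3.38, SE 0.24, adjusted p = 8.83e-07) and Clu at 46.8% (log2 -1.09, SE 0.17, adjusted p = 0.000212). Smaller differences were found for Aqp4 (log2 0.54, adjusted p = 0.0195), Sparcl1 (log2 0.51, adjusted p = 0.0344), Apoe (log2 0.37, adjusted p = 0.00193) and Slc1a2 (log2 -0.26, adjusted p = 0.0347). Aldoc did not pass (log2 0.19, SE 0.17, adjusted p = 0.327). The groups did not overlap for 8 of the 10 genes, against 81.8% of all genes tested.

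The calls for Aqp4, Sparcl1 and Slc1a2 were each lost when any 1 of several libraries was left out. Leaving out 1 library at a time gave an adjusted p of up to 0.0682 for Aqp4, 0.138 for Sparcl1 and 0.0813 for Slc1a2, with the direction kept. Aqp4 lost its call without control cortex library 2 or without control NPC library 2. Without the latter its log2 difference was 0.26. Sparcl1 lost its call without control cortex library 1 or 2 or control NPC library 2 or 3, and its log2 difference was lowest without control cortex library 2, at 0.34. Slc1a2 lost it without any 1 of control cortex libraries 2 and 3 and the 3 control NPC libraries, and its log2 difference was nearest 0 without control cortex library 2, at -0.18. Cortical tissue and cultured progenitors differ in cell types and in growth conditions, which cannot be told apart in this comparison.

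In cortex the question was whether the astrocyte genes changed in mice labelled Srsf10 cKO. None of the 10 passed edgeR's test at an adjusted p of 0.05, where 0.171% of the 15781 genes tested passed. At an unadjusted p under 0.05 there were 2 of 10, Slc1a2 and Aldoc, and DESeq2 also called 0 of 10. The median log2 fold change of the 10 genes was 0.12, against 0.003 over all genes tested, and 6 of the 10 were above 0.

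The structural and marker genes first. Gfap had 68.6, 52.9 and 44.5 CPM in control libraries 1, 2 and 3 and 44.3, 55.8 and 62.4 CPM in cKO libraries 1, 2 and 3. The groups covered nearly the same range (log2 -0.02, SE 0.17, adjusted p = 0.977). Its 95% interval ran from -0.39 to 0.35 on the log2 scale.

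Aldh1l1 was at 48.0, 43.1 and 51.7 CPM in control and 45.8, 46.7 and 43.4 CPM in cKO cortex. The groups overlapped, and the 95% interval of the log2 difference ran from -0.26 to 0.13 (adjusted p = 0.838). S100b was the lowest of the 10, with 1.29, 0.604 and 0.679 CPM in control and 1.08, 1.56 and 0.396 CPM in cKO cortex, from 15 to 54 counts a library. Its 95% interval was wide, from -0.93 to 1.39 on the log2 scale.

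Among the channels and transporters, Aqp4 was the least variable gene, with 36.1, 32.2 and 34.5 CPM in control and 37.1, 36.7 and 33.6 CPM in cKO cortex. Its groups overlapped, and its 95% interval ran from -0.12 to 0.26 on the log2 scale. Gja1 had 58.6, 36.5 and 75.2 CPM in control and 74.0, 89.2 and 62.9 CPM in cKO cortex. Its groups overlapped, with control library 2 the lowest of the 6 (log2 0.42, SE 0.21, adjusted p = 0.515). Without control library 2 the log2 difference was 0.18.

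Slc1a2, which clears glutamate from synapses, had 186, 238 and 210 CPM in control and 272, 294 and 225 CPM in cKO cortex. Control library 2 lay above cKO library 3, so the groups overlapped. Its log2 difference was 0.32 (SE 0.11), higher in cKO, with an unadjusted p of 0.0131 and an adjusted p of 0.303 (edgeR), which does not pass. Leaving out single libraries, or the 2 libraries rich in Ttr together, gave log2 values from 0.23 to 0.52 and adjusted p from 0.05003 to 0.732, with no call. The largest value and the smallest p came without both Ttr-rich libraries.

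Among the metabolic and secreted proteins, Aldoc had 124, 111 and 96.7 CPM in control and 128, 129 and 146 CPM in cKO cortex. Aldoc was the 1 gene of 10 whose groups did not overlap, against 17.3% of all genes tested. Its log2 difference of 0.29 (SE 0.10) had an unadjusted p of 0.0138 and an adjusted p of 0.308 (edgeR) and did not pass. Over libraries left out, it ranged from 0.19 to 0.37, with adjusted p from 0.198 to 0.633.

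Apoe had 248, 205 and 232 CPM in control and 225, 264 and 279 CPM in cKO cortex. Its groups overlapped (log2 0.17, SE 0.09, adjusted p = 0.547). Sparcl1 had 503, 362 and 550 CPM in control and 451, 503 and 445 CPM in cKO cortex. Control library 2 was the lowest, and the groups overlapped (log2 -0.01, SE 0.13, adjusted p = 0.987). Clu had 65.5, 78.2 and 55.7 CPM in control and 56.9, 60.6 and 74.2 CPM in cKO cortex, which also overlapped (log2 -0.05, SE 0.14, adjusted p = 0.931). Control library 2, low in Gja1, Sparcl1 and Apoe, is the library with few meningeal fibroblast counts and many of Ttr. The part of these cells in the result was not tested.

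**Figure D2:**
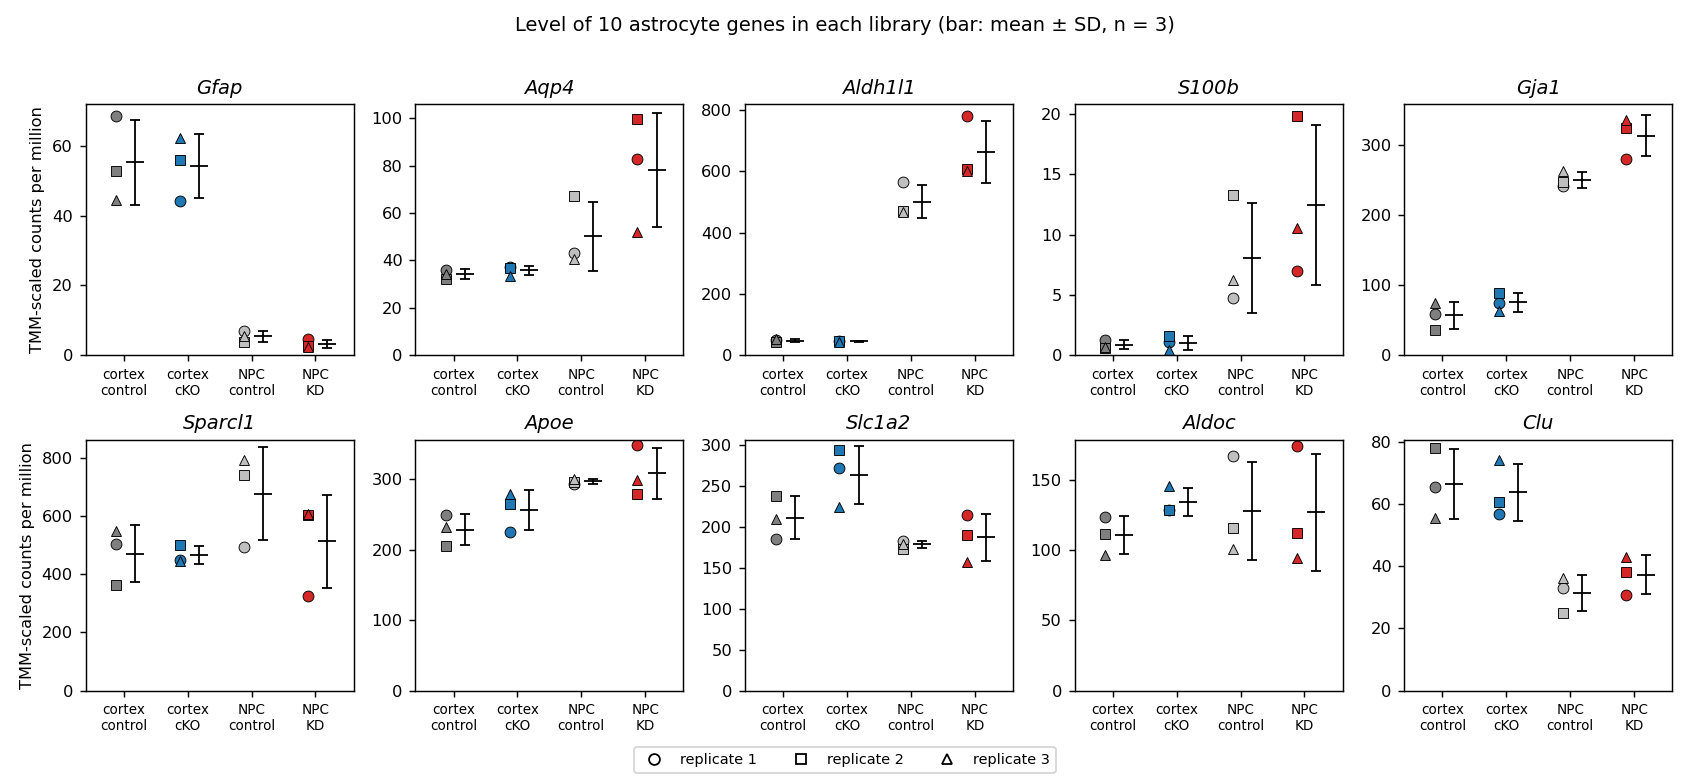
CPM, scaled by TMM, of each of the 10 astrocyte genes (1 panel a gene, vertical axis from 0) in the 4 groups, with each library as a point and the mean ± SD of 3 libraries as a bar. In cortex control and cKO points overlap for every gene but Aldoc, and in NPC the knockdown points lie above all control points for Aldh1l1 and Gja1.

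In NPC the same question was asked of the cells labelled SRSF10 knockdown. In the fit that treats the 6 libraries as unpaired, 0 of the 10 genes passed, where 1.89% of the 14258 genes tested passed by edgeR. At an unadjusted p under 0.05 there were 3 of 10 (Aqp4, Aldh1l1 and Gja1), and DESeq2 called 2 of 10, Aldh1l1 (adjusted p = 0.0364) and Gja1 (adjusted p = 0.0119), both higher. Control and knockdown libraries with the same replicate number deviated together from their group means, so the numbers were also used as pairs. With the pairs as a block, 6 of the 10 genes passed. Aqp4, Aldh1l1, S100b and Gja1 rose, 4 of 10 against 11.9% of all genes tested, and Gfap and Sparcl1 fell, 2 of 10 against 12.8%. In all, 24.7% of genes passed the paired test. The labels do not say what a replicate number shared. By edgeR on all 6 libraries the 6 calls need the pairs, and of the 6 DESeq2 called Aldh1l1 and Gja1 without them. The median log2 fold change of the 10 genes was 0.16 in the paired fit, against 0.003 over all genes.

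Gfap had 6.89, 3.63 and 5.56 CPM in control NPC libraries 1, 2 and 3 and 4.66, 2.71 and 2.33 CPM in the knockdown libraries of the same numbers. The groups overlapped, because knockdown library 1 lay above control library 2, but knockdown was lower in each of the 3 pairs. Pair ratios of knockdown over control were 0.676, 0.745 and 0.419. Gfap fell by 0.73 on the log2 scale in the paired fit (SE 0.18, adjusted p = 0.0105), to 60.2% of control, and had an adjusted p of 0.308 without pairs. The call rested on pair 3: without it the log2 value was -0.49 and the adjusted p 0.133, and over the pairs left out the adjusted p ran from 0.00038 to 0.133. Levels were low, at 63 to 189 counts a library.

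Aldh1l1 moved the other way. It had 564, 472 and 468 CPM in control and 781, 608 and 601 CPM in knockdown NPC, and all knockdown libraries lay above all control libraries. Pair ratios were 1.39, 1.29 and 1.28. Aldh1l1 rose by 0.41 on the log2 scale in the paired fit (SE 0.05, adjusted p = 7.38e-05), 1.32-fold, against an adjusted p of 0.159 without pairs. The gene overlaps the annotated genes Gm45901 on the same strand and Gm15756 on the opposite strand. Since the sources used here do not give the strand setting of the counting, reads of these genes cannot be separated with certainty.

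S100b had 4.74, 13.3 and 6.25 CPM in control and 6.97, 19.8 and 10.6 CPM in knockdown NPC. Library 2 was the highest of its group in both, and the groups overlapped widely. Within pairs the ratios were close together, at 1.47, 1.49 and 1.69. S100b rose by 0.63 on the log2 scale in the paired fit (SE 0.11, adjusted p = 0.000729), 1.55-fold, while without pairs the spread between libraries gave the same size an SE of 0.48 and an adjusted p of 0.534.

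Aqp4 had 43.0, 67.1 and 40.5 CPM in control and 83.1, 99.6 and 51.9 CPM in knockdown NPC. Library 2 was again the highest in both groups, and the groups overlapped. Pair ratios were 1.93, 1.48 and 1.28. Aqp4 rose by 0.63 on the log2 scale in the paired fit (SE 0.09, adjusted p = 0.00019), against an adjusted p of 0.269 without pairs. The gene lies at chr18:15389496-15410982 on mm10.

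Gja1 had 241, 247 and 263 CPM in control and 280, 325 and 335 CPM in knockdown NPC, with no overlap between the groups. Aldh1l1 and Gja1 were the 2 of 10 genes without overlap, where 23.5% of all genes tested had none. Gja1 rose by 0.33 on the log2 scale in the paired fit (SE 0.05, adjusted p = 0.00042), 1.25-fold, with pair ratios of 1.16, 1.32 and 1.28. Without pairs it came nearest of the 10 to the threshold, with an adjusted p of 0.0892. Leaving out knockdown library 1 brought it to a log2 value of 0.40 and an adjusted p of 0.0334, and over single libraries left out the adjusted p ran from 0.0334 to 0.299.

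Sparcl1 had 496, 742 and 795 CPM in control and 327, 605 and 607 CPM in knockdown NPC. Library 1 was the lowest of its group in both, and the groups overlapped. Pair ratios were 0.659, 0.815 and 0.764. Sparcl1 fell by 0.42 on the log2 scale in the paired fit (SE 0.06, adjusted p = 0.000162), to 74.7% of control, against an adjusted p of 0.477 without pairs.

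The other 4 genes did not pass in either fit. Apoe had 293, 296 and 300.5 CPM in control and 348, 278 and 299 CPM in knockdown NPC, a near equal level in every library but knockdown 1 (paired log2 0.06, 95% interval -0.08 to 0.19). Slc1a2 had 182, 173 and 179 CPM in control and 215, 190 and 157 CPM in knockdown NPC, so the control libraries lay close together and the knockdown libraries on both sides of them (paired log2 0.06, interval -0.09 to 0.22). Slc1a2 overlaps Gm13872 on the opposite strand, with the same uncertainty as for Aldh1l1. Aldoc had 167, 115 and 100.5 CPM in control and 174, 112 and 94.0 CPM in knockdown NPC. It differed more between pairs than within them, with ratios of 1.04, 0.972 and 0.935 (paired log2 -0.02, interval -0.13 to 0.10).

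Clu had 33.1, 24.9 and 36.2 CPM in control and 30.8, 38.2 and 43.2 CPM in knockdown NPC. Its groups overlapped, and knockdown was lower in pair 1 and higher in pairs 2 and 3. Its paired log2 value was 0.26 (SE 0.10, adjusted p = 0.0741). Without pair 1 it was 0.43 with an adjusted p of 1.8e-07, from 2 pairs only, and over the pairs left out the adjusted p ran to 0.609. The paired fit without the filter on low counts also called Clu, at the same size of 0.26 (adjusted p = 0.00324).

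**Figure D3:**
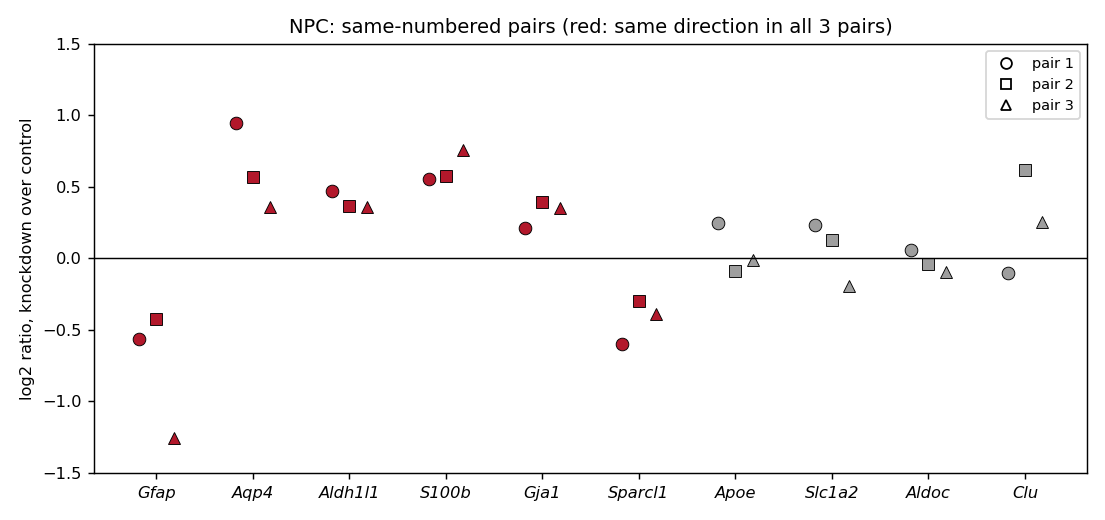
Log2 ratio of knockdown over control CPM in each same-numbered NPC pair (vertical axis) for the 10 astrocyte genes (horizontal axis), with shapes for pairs 1 to 3 and red for genes on the same side of 0 in all 3. Gfap and Sparcl1 lie below 0 and Aqp4, Aldh1l1, S100b and Gja1 above 0 in every pair, and Apoe, Slc1a2, Aldoc and Clu lie on both sides.

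The same 6 genes lay on 1 side in all 3 pairs, 6 of 10 against 53.5% of all genes tested. Leaving out a pair kept the direction of all 6. It ended the call of Gfap and of no other of the 6, whose highest adjusted p without a pair was 0.0285, for S100b.

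**Figure D4:**
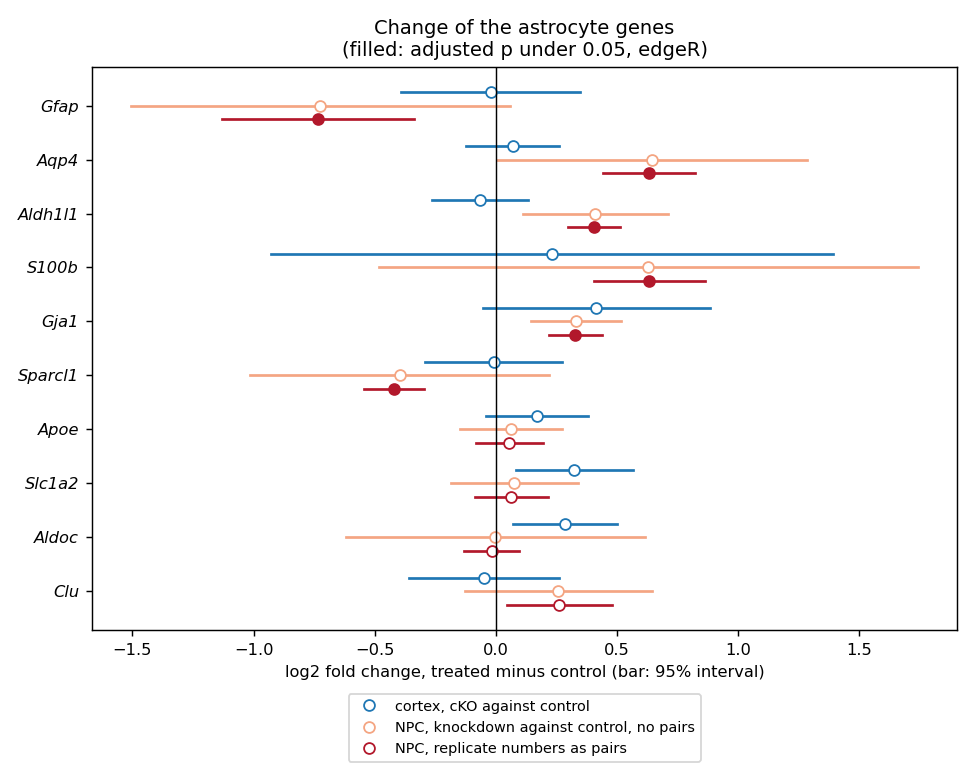
Log2 fold change, treated minus control, of each astrocyte gene with its 95% interval, in cortex (blue), in NPC without pairs (light red) and in NPC with pairs (dark red), where filled points passed an adjusted p of 0.05. The NPC estimates with and without pairs nearly coincide, and the paired intervals are narrower for all 10 genes.

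Whether the NPC effect differed from the cortex effect was tested directly, as an interaction in 1 fit of all 12 libraries. Without pairs, 0 of the 10 genes passed by edgeR, where 1.46% of 16569 genes tested passed. At an unadjusted p under 0.05 there was 1 of 10, Aldh1l1 (log2 0.49, SE 0.15, adjusted p = 0.144), and DESeq2 called 0 of 10. With the pairs as a block in NPC alone, an alternative added after seeing the data, 2 of 10 passed, where 5.05% of all genes did. Both were positive, against 2.41% of all genes. They were Aldh1l1 (log2 0.48, SE 0.09, adjusted p = 0.0105) and Aqp4 (log2 0.58, SE 0.14, adjusted p = 0.036). For both, the change from control in NPC labelled knockdown lay above the change from control in cortex labelled cKO. With a block in both systems, only Aldh1l1 passed of the 10 (adjusted p = 0.0282). For Gfap and Sparcl1, which fell in the paired NPC fit, the difference from cortex did not pass (adjusted p = 0.202 and 0.215 with the block in NPC alone), and for S100b and Gja1 neither (0.729 and 0.939).

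Other genes of astrocytes and their progenitors were taken from lists chosen with earlier results of these data known. In cortex 0 of 28 further astrocyte genes, 0 of 12 radial glia genes, 0 of 19 tested gliogenic regulators, 0 of 10 tested genes of reactive astrocytes, 0 of 15 lipid transport genes and 0 of 33 genes of the same families as the 10 passed, against 0.171% of all genes. Their medians lay between -0.04 and 0.07 on the log2 scale. Of the marker genes for other cell types, 1 gene passed in cortex. Gpr17, a receptor of the oligodendrocyte lineage, fell by 0.79 on the log2 scale (SE 0.10, adjusted p = 0.0213), from 25.3 ± 1.16 to 14.6 ± 1.26 CPM. The call was lost without any 1 of the 3 cKO libraries, with adjusted p from 0.0377 to 0.158 and log2 values from -0.84 to -0.73 over libraries left out.

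In NPC without pairs, Glul, the astrocyte enzyme that makes glutamine from glutamate, fell by 0.39 on the log2 scale (SE 0.07, adjusted p = 0.0387), from 490.3 ± 12.5 to 372 ± 22.2 CPM. It was 1 of 27 tested further astrocyte genes. In this fit 1.89% of all genes tested passed, the share to set beside each list count here. Among 13 tested reactive astrocyte genes, the receptor gene S1pr3 fell by 1.38 (adjusted p = 0.0497), and among 27 tested genes of the same families, Slc1a4, a transporter of neutral amino acids related to Slc1a2, fell by 0.48 (adjusted p = 0.0269). These 3 calls were lost without any 1 of the 3 control libraries or without knockdown library 2, and those of Glul and S1pr3 also without knockdown library 3. The adjusted p then reached 0.196 for Glul, 0.212 for S1pr3 and 0.143 for Slc1a4. None of 12 radial glia genes, 19 gliogenic regulators and 15 lipid transport genes passed in this fit.

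With pairs, 11.9% of all genes tested rose and 12.8% fell, and the counts of each list stand beside these shares. Of 27 further astrocyte genes, 6 rose and 4 fell. Scrg1 rose by 1.09 on the log2 scale (SE 0.15, adjusted p = 0.000186). Dio2, Gpr37l1, Mt2 and Pla2g7 also rose. Glul (0.40, adjusted p = 0.000102) and the bicarbonate cotransporter gene Slc4a4 (0.36, adjusted p = 0.000132) fell by these log2 amounts, as did Cst3 and Slc7a10. Dio2 and Slc7a10 lost their calls without pair 2 or pair 3, and Gpr37l1 without pair 1 or pair 3. Slc1a3, the glutamate transporter GLAST, did not pass, at 1303 ± 30.6 CPM in control and 1340.4 ± 29.6 in knockdown NPC (adjusted p = 0.532). The median of the list was 0.05.

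Of 12 radial glia genes, 3 rose and 3 fell with pairs, against the 11.9% and 12.8% of all genes. Nes rose by 0.21 on the log2 scale (adjusted p = 0.0198), as did Prom1 and Tnc. Nes and Tnc lost their calls without pair 2 or pair 3, and Prom1 without any 1 pair. The direction was kept, with log2 values over the pairs left out from 0.16 to 0.29 for Nes. They ran from 0.15 to 0.38 for Tnc and from 0.37 to 0.43 for Prom1. Sox2, a transcription factor of neural stem cells, fell by 0.50 (adjusted p = 8.49e-05), Hopx by 0.85 (adjusted p = 0.000179) and Cdh4 by 0.64 (adjusted p = 2.78e-06). Of 19 tested gliogenic regulators, Nfix, Zbtb20 and Lifr rose and Sox9 and Id3 fell, 3 and 2 of 19 against the same shares. Id3 lost its call without pair 2 or pair 3. Nfix, a nuclear factor I gene, rose by 0.31 (adjusted p = 0.00036), while Nfia and Nfib had log2 values of 0.07 (adjusted p = 0.437) and 0.02 (adjusted p = 0.848). Sox9, a transcription factor needed for astrocyte formation, fell by 0.42 (adjusted p = 0.000361).

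Of 13 tested genes of reactive astrocytes, 4 rose and 5 fell with pairs, against 11.9% and 12.8% of all genes, and the median was -0.21. Cd44 rose by 0.30 on the log2 scale (adjusted p = 0.000948), Cp, which encodes the copper protein ceruloplasmin, by 0.39 (adjusted p = 0.000223) and the chemokine gene Cxcl10 by 0.89 (adjusted p = 0.0019), and H2-D1 rose too. S1pr3 fell by 1.40 (adjusted p = 0.000424), as did Gbp2, Ggta1, Osmr and Timp1. Without pair 3 the calls of Gbp2, Ggta1 and Osmr were lost, and those of H2-D1 and Timp1 were lost without any 1 pair. The list thus held changes in both directions.

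Of 15 genes of lipid transport, the system that moves Apoe particles, 2 rose and 3 fell with pairs, 5 of 15 in all, against the 24.7% of all genes that passed. The Apoe receptor gene Lrp8 rose by 0.28 on the log2 scale (SE 0.06, adjusted p = 0.00311). Abca1, which loads lipid onto Apoe, fell by 0.42 (adjusted p = 5.87e-05), Nr1h2, a liver X receptor, by 0.36 (adjusted p = 0.000547), and Pltp fell as well, a call lost without pair 3. Apoe itself had the paired log2 value of 0.06 given above. Of 27 tested genes of the same families, Gjc1, Nes and Slc1a5 rose and S100a10, S100a11, Slc1a4 and Smoc1 fell, 3 and 4 of 27 against 11.9% and 12.8% of all genes. Among relatives of single members, S100a10 fell by 0.57 (adjusted p = 0.000265) and Smoc1, a relative of Sparcl1, by 0.71 (adjusted p = 0.000515). Without pair 3 the calls of S100a11 and Smoc1 were lost, and that of S100a11 also without pair 1.

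Markers of other cell types also passed in the paired NPC fit. Pdgfra fell by 0.58 on the log2 scale (adjusted p = 0.000977, and 0.0504 without pair 3), Foxj1 of ciliated cells rose by 0.63 (adjusted p = 0.000194), Otx2 rose by 1.01 (adjusted p = 2.7e-06) and Flt1 fell by 1.14 (adjusted p = 5.29e-06). Of the neuronal markers, Gap43 rose and Syt1 fell. Flt1 and Syt1 also passed in the fit without pairs, where both calls were lost without any 1 library. The summed level of 9 oligodendrocyte lineage markers was 2854 to 2946 CPM in control and 2994 to 3063 CPM in knockdown NPC, and that of 5 ependymal markers 26.9 to 36.0 and 31.3 to 54.4 CPM. That of 8 neuronal markers was 416 to 538 CPM in control and 467 to 829 CPM in knockdown NPC. Gene by gene the neuronal markers did not rise together. Of 7 tested in the paired fit, 3 were above 0, and their median log2 value was -0.04. Within the ependymal sum, Foxj1 alone had 20.6 to 28.3 CPM in control and 25.6 to 45.1 CPM in knockdown NPC. The summed level of the 10 astrocyte genes was 2031 to 2195 CPM in control and 2201 to 2279 CPM in knockdown NPC. The part of these cell types in the changes of the astrocyte genes was not tested.

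**Figure D5:**
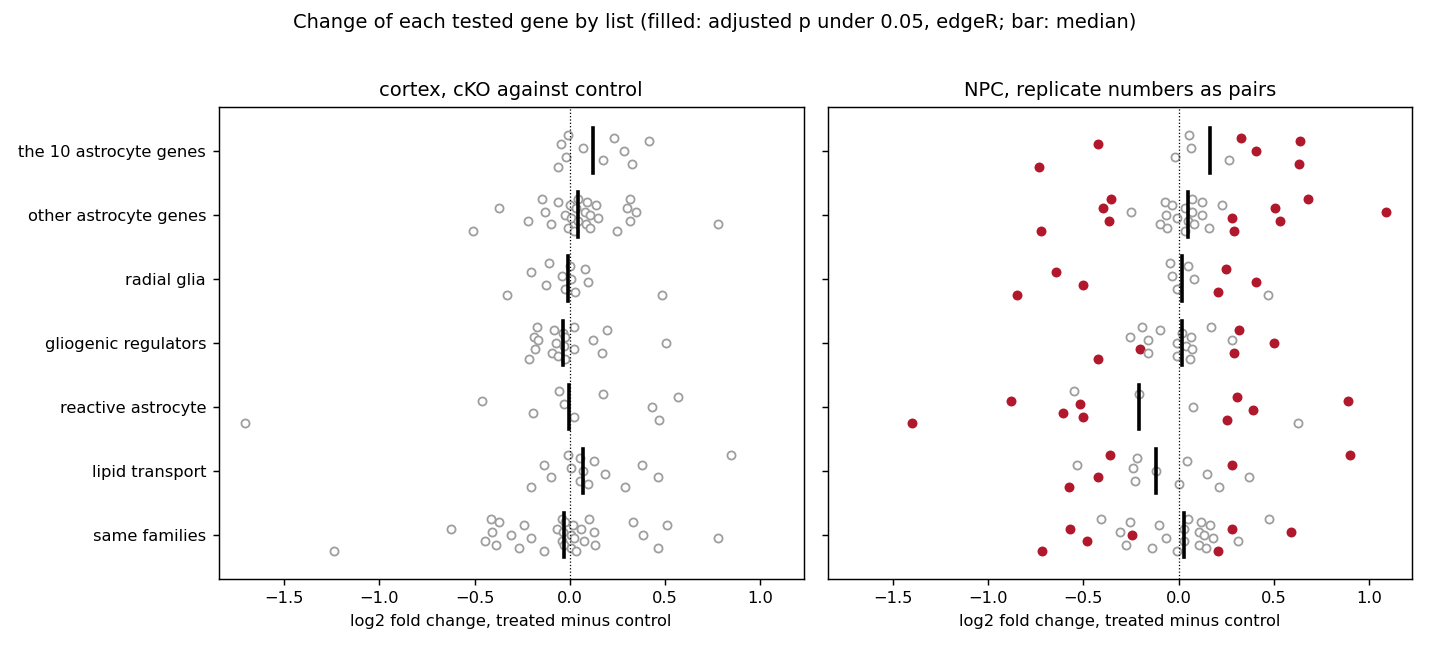
Log2 fold change, treated minus control, of every tested gene in 7 lists (rows), in cortex (left) and in NPC with pairs (right), where filled points passed an adjusted p of 0.05 and the bar is the list's median. In cortex no gene of these lists passed, and in NPC each list holds genes that rose and genes that fell.

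By correlation of log2 CPM over the 12 libraries, among 11704 genes, the gene most like Gfap was Tspan7 (r = 0.995), that most like Aldh1l1 was Kpna2 (r = 0.999) and that most like Gja1 was Cp (r = 0.992). S100b was nearest to Bcap29 (r = 0.980), Clu to Ube2d2a (r = 0.958), Aqp4 to Pdzrn4 (r = 0.956), Slc1a2 to Zfp950 (r = 0.947), Apoe to Tbccd1 (r = 0.931) and Aldoc to Zfand4 (r = 0.840). These are descriptions over 12 libraries that fall into cortex and NPC. No member was the nearest gene of another, and none was among another's 3 nearest.

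The 3′ untranslated regions of the 10 genes were searched for 2 short words, ACCGAC and CCGACT, that an earlier look at these data had singled out. None of the 10 genes held either word, against 12.5% of the 19618 genes with an annotated 3′ untranslated region.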

How the data were processed

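RNA-seq libraries of cortex and NPC (3 per group) were analysed from the deposited table of raw counts per gene, which the authors made after alignment with HISAT2 to mm10, per the submitters' processing notes. The sources used here do not give the counting program, its annotation or its strand setting. Genes were matched by symbol, and positions and exon lengths came from GENCODE M21, which holds 34065 of the 34102 identifiers. Counts were TMM-normalised in edgeR 4.0.16 (R 4.3.3), filtered with filterByExpr and tested with the quasi-likelihood test on the 6 libraries of each comparison, or all 12 for the interaction, with Benjamini-Hochberg adjustment over all genes tested and a threshold of 0.05. Fold changes are treated minus control, and intervals are 95%.

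Pairing was decided from the correlation of residuals between libraries of the same number, which was 0.474, 0.495 and 0.439 in NPC (each over 0.1, paired) and 0.02, -0.17 and -0.02 in cortex (not paired). The NPC tests were therefore run without and with the number as a block. Replicates differed by more than counting noise. The members and the 15 gene lists were chosen with earlier results of these data known. Named genes are the 10 members, Srsf10, up to 4 called genes by adjusted p and the first 3 of each list, and the 3 most correlated genes (mean of at least 5 CPM, prior count 2). Other called genes of the lists were named after their values were seen. Values of some genes named by this rule are not reported here. Alternatives were DESeq2 1.42.0, RLE size factors, leaving off the count filter, the replicate block, 1 fit of 12 libraries, and leaving out libraries, pairs or the 2 cortex libraries above 1000 CPM of Ttr. Added after seeing the data were the alternatives of the blocked NPC fit, leaving out libraries for called list genes, and the block in NPC alone. The procedure was tested on simulated data. Figures were drawn with matplotlib 3.10.9.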

Additional observations from a re-analysis of the deposited data

Results flagged for a closer look

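By the interaction test (edgeR, adjusted over all genes), the effect in NPC differed from that in cortex for 8 genes of the lists. It differed for none of the 10 astrocyte genes. Of all 16569 genes tested 1.46% passed, so none of 10 is near the background. Of genes named beside astrocytes, the difference, NPC minus cortex on the log2 scale, was -0.46 for Glul (SE 0.09, adjusted p = 0.0229), -1.31 for S1pr3 (SE 0.29, adjusted p = 0.0444), -1.43 for Osmr (SE 0.31, adjusted p = 0.042), -1.11 for the radial glia gene Cdh4 (SE 0.22, adjusted p = 0.0288) and 0.49 for Nfix (SE 0.09, adjusted p = 0.0207). Of markers of other cells, it was -1.24 for Flt1 of vessels (SE 0.27, adjusted p = 0.0433), -1.17 for the neuronal gene Syt1 (SE 0.16, adjusted p = 0.00358) and 4.21 for Enpp6 of the oligodendrocyte lineage (SE 0.75, adjusted p = 0.0165). Enpp6 rests on few counts, 1 to 15 a library. Cdh4 was at 71.5 ± 6.43 CPM in control and 99.8 ± 18.9 CPM in cKO cortex, and at 194 ± 27.7 and 125 ± 25.2 CPM in control and knockdown NPC. Leaving out 1 library at a time, Syt1 passed in all 12 fits, Enpp6 in 10, Nfix in 7, Glul and Cdh4 in 5 each, Flt1 in 3, S1pr3 in 2 and Osmr in 1, with the direction kept.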

How the results depend on the processing

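In cortex 0 of the 10 astrocyte genes passed in every alternative run, while the number of genes called was 27, and 156 with no count filter, 338 with DESeq2, 49 in 1 fit of all 12 libraries and 1 with the replicate block. It ran from 0 (without cKO library 1) to 28 over libraries left out. In NPC the replicate block, which pairs same-numbered libraries, moved the genes called from 270 to 3522 and the astrocyte genes called from 0 to 6. DESeq2 called 1012 genes and 2 of the 10, and 1 fit of all 12 libraries 654 and 1. Leaving out libraries gave 47 to 304 genes and 0 to 1 of the 10. Without the block, the paired results fell back to 270 and 0, and leaving out pairs gave 1636 (without pair 3), 2170 (without pair 2) and 4376 genes and 5 to 7 of the 10. The interaction called 242 genes and 0 of the 10, and DESeq2 783 genes. The replicate block in both systems gave 604 and 1, the replicate block in NPC alone 836 and 2, and libraries left out 98 to 275 genes. Over the member values under alternatives, 0 reversed a call, 527 kept their side of the threshold, 15 gained a call and 18 lost one. Of 51 called genes of the other lists in the paired fit, 33 passed whichever pair was left out and 18 did not. In cortex S100b rests on 15 to 54 counts a library, and its coefficient of variation there was 44.0% in control and 57.7% in cKO.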
